A study of Mus musculus with 1457 samples.

Results

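The genes described here are the semaphorins of classes 3 to 7, the plexins, the Slit and Robo genes, the Unc5 receptors, and the A and B classes of ephrins and Eph receptors. They were taken by symbol from both deposited count tables, which gave 62 of the 36131 genes the tables share. The 62 are 20 semaphorins, 9 plexins, 3 Slit ligands, 4 Robo receptors, 4 Unc5 receptors, 5 A ephrins, 9 EphA receptors, 3 B ephrins and 5 EphB receptors. No measured value entered this choice.

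The study profiled 1457 single cells of the aorta-gonad-mesonephros, the embryonic region around the dorsal aorta, by Smart-seq2, a full-length cDNA method for sorted single cells. All embryos were of the ICR strain, at embryonic stage E10.5 or E11.5, and every group carried at least 1 reporter allele. All gates excluded TER119 and CD45, and all but the clusters and cells in transition excluded CD41 and KIT. Endo is the CDH5+ gate without reporter signal, HE (hemogenic endothelium) the CDH5+ gate with it, EHT (cells turning from endothelium to blood) the CDH5+ KIT+ CD41+ GFI1+ gate, IAHC (intra-aortic hematopoietic clusters) the same gate with GFI1B, and Mes (mesenchyme) the CDH5- RUNX1b+ gate. For the Endo cells of the Runx1b line the title is the only label, and their gate is not given in the sources used here.

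The Gfi1:Tomato/WT Gfi1b:GFP/WT line was sorted at E10.5 into 95 HE, 74 Endo, 42 IAHC and 41 EHT cells, and at E11.5 into 40 HE, 22 IAHC and 16 Endo cells. A further 41 Endo, 43 HE and 42 EHT cells of this line bear E11.5 in the title and E10.5 in the stage field, and were kept as groups of their own. From Gfi1:Tomato/Tomato Gfi1b:GFP/GFP embryos, homozygous for both alleles, came 42 HE cells of E10.5. The Runx1b:RFP/WT line, at E10.5, was sorted into 53 Endo cells, HE cells (17.98% of all cells of the study) and Mes cells (7.34%), and Runx1b:RFP/RFP embryos into 91 Mes cells. A second set of HE cells (19.01%) bears KO in the title and Runx1b:RFP/WT as genotype, and is called titled KO. The ACE set, of Gfi1:Tomato/WT embryos at E10.5, held 14 ACE- GFI1- cells (Endo), 39 ACE+ GFI1+ cells (HE) and ACE+ GFI1- cells (7.96% of all cells), where ACE is angiotensin-converting enzyme on the cell surface. No embryo or litter is named, so each of the 19 groups counted as 1 sample. The p-values measure the spread between these sort sets only. For Mes they measure the spread among Endo sums that differ in line, stage or sort set, together with that between Mes sums of different genotype.

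Levels are counts per 1e6 reads (CPM), taken from the summed reads of a group, with exact 95% Poisson intervals that cover counting error only, as Smart-seq2 reads have no molecular identifiers. The sums rest on 14577594 to 199887490 reads. In such sums, fewer expressing cells and less RNA per cell cannot be told apart. Several sorts held cells whose reads went against their label. Of 20 pan-endothelial genes, 10 or more had reads in 50% of the heterozygous Runx1b HE cells, and in 83.2% to 100% of the cells of the other 3 HE sorts compared with Endo. Cells with 1% or more of their reads in globin genes are called erythroid-like, and were 63.6% of E11.5 IAHC, 16.8% of E10.5 HE, 11.8% of heterozygous Runx1b HE, and 0% of E10.5 EHT and IAHC.

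Axon guidance ligands and receptors steer growing nerve fibres and, in the same way, sprouting and sorting endothelial cells. Semaphorins signal through plexins, class 3 semaphorins mostly together with neuropilins. Slit proteins bind some Robo receptors, netrins and other ligands bind Unc5 receptors, and ephrins and Eph receptors signal in both directions between touching cells. In vessels the B ephrin Efnb2 is known as an arterial gene and its receptor Ephb4 as a venous one.

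The results below turn most on 3 genes that separated HE from Endo, the receptor Robo4, the class 3 semaphorin Sema3g and the ligand Slit2, so the DNA just before their first exon is shown. The letters come from the RefSeq promoter table of GRCm38.p6, which holds 54 of the 62 members. Each stretch starts 250 bases before the RefSeq start and ends before the first base that either RefSeq or GENCODE counts as transcribed. All 3 genes lie on the plus strand. Capitals mark the motifs found.
Robo4, chr9:37401722-37401896: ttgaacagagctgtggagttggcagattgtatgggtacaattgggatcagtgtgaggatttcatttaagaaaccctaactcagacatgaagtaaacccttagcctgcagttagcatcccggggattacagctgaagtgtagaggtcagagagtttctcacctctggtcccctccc
Sema3g, chr14:31217623-31217859: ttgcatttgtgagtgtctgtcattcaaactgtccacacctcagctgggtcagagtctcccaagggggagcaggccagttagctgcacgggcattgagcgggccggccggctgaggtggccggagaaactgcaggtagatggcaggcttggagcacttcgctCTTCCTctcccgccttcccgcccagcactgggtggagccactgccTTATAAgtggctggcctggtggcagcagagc
Slit2, chr5:47982905-47983137: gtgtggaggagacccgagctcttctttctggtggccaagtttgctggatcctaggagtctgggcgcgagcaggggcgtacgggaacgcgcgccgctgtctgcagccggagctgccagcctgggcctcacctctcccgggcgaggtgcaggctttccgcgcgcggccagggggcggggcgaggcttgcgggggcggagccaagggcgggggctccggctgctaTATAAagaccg
On both strands, TGTGGT (RUNX), AGGAAG and CGGAAG (ETS), TGGGAA (RBPJ), AAATCA (GFI1) and TATAA (TATA box) were searched. The Sema3g stretch held 1 AGGAAG on the opposite strand, which 28.03% of the 32851 promoters hold in a window of the same length. TATAA was found in the Sema3g stretch, on both strands with overlap, and in the Slit2 stretch; 22.2% and 22.1% of all promoters hold it in such windows. The Robo4 stretch held none of the 6 motifs, each of which 7.63% to 21.001% of promoters hold at that length. The TATA motif was added after the sequences had been read. These matches describe letters in a window and no binding.

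Endothelium expressed a small part of these families at high level. To compare genes, CPM was divided by the exon length in kilobases (RPKM), and means are over the 4 Endo sums of the Gfi1 E10.5, Gfi1 E11.5, Runx1b and ACE sets. Efna1, the A ephrin that binds EphA2, had the highest level per length with a mean of 295 RPKM (range 265.8 to 342). Plxnd1, the plexin best known from vessels, followed with 102.8 RPKM (90.8 to 122.2). These first 2 ranges do not overlap with each other or with that of any other member.

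Robo4, the Robo gene of endothelium, was next, with 56.8 RPKM (42.1 to 67.4). Ephb4 followed with 49.2 RPKM (34.4 to 84.9), a range that overlaps with that of Robo4. The following members were Sema6d (20.4 RPKM), Unc5b (16.2 RPKM), Efnb2 (14.7 RPKM) and Epha2 (14.005 RPKM), whose ranges overlap with one another. At the other end, 6 members stayed under 3 CPM in all 19 groups. They are Epha6 (highest 0.452 CPM), Sema3e (1.19 CPM), Slit1 (1.94 CPM), Epha10 (2.49 CPM), Sema4f (2.57 CPM) and Epha8 (2.9 CPM).

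**Figure D1:**
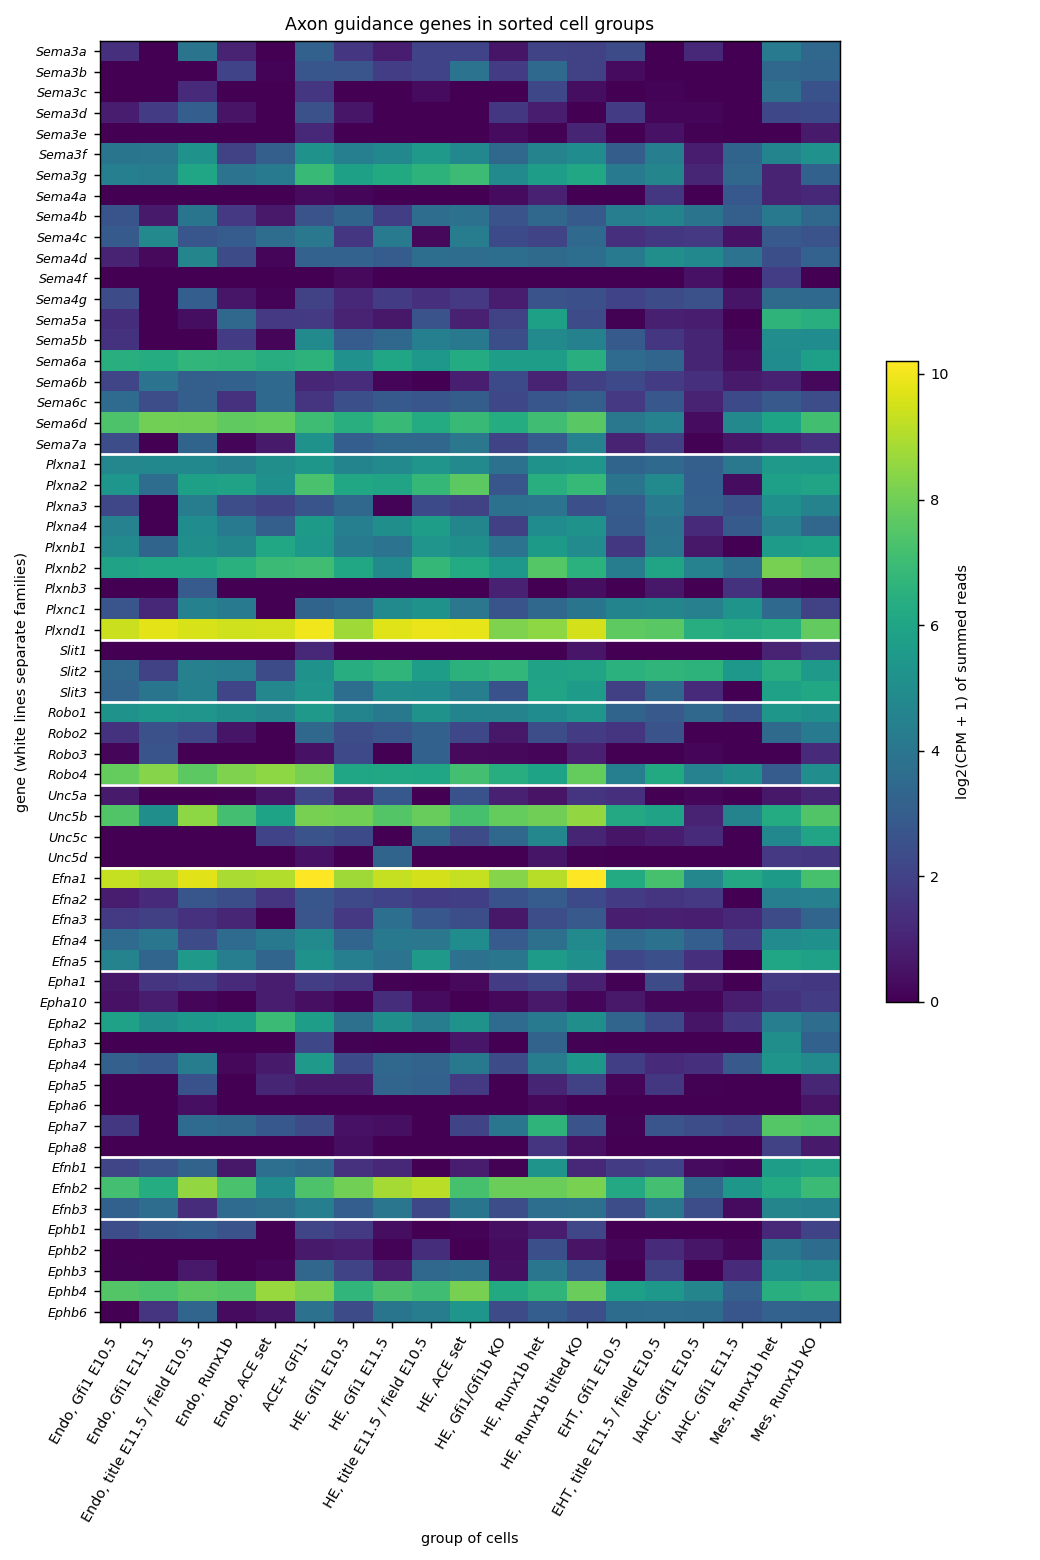
All 62 genes (rows, by family) in the 19 groups of cells (columns), coloured by log2(CPM + 1) of the summed reads. The bright rows are Efna1, Plxnd1, Robo4, Ephb4, Sema6d, Efnb2 and Unc5b, most of which are dim in the 2 IAHC columns.

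HE was compared with Endo over the 4 sort sets to ask which of these genes differ once endothelium carries the GFI1 or RUNX1b reporter. Robo4 fell and Sema3g rose in HE. Of the 62 members 50 passed the filter on low counts and were tested with edgeR's quasi-likelihood test. The 12 left untested, for too few reads, were Sema3c, Sema3e, Sema4a, Sema4f, Plxnb3, Slit1, Robo3, Unc5d, Epha3, Epha6, Epha8 and Ephb2. Robo4 and Sema3g passed at an adjusted p under 0.05, where 0.886% of all genes tested were called higher and 0.515% lower (1.4% in either direction). At an unadjusted p under 0.05, 14 members were higher (all genes 11.4%) and 6 lower (all genes 7.96%). In the next lines, values stand in the order Gfi1 E10.5, Gfi1 E11.5, Runx1b and ACE set.

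Robo4 (ENSMUSG00000032125, chromosome 9, 37401897 to 37415115, plus strand) had 223.2, 321, 303 and 357 CPM in Endo and 63.3, 65.96, 59.02 and 140.5 CPM in HE. Every Endo sum was above every HE sum, and the HE sum of the ACE set was the highest of its gate. In the fit Robo4 fell by 1.87 ± 0.21 (log2, standard error, n = 4 sums in each gate, adjusted p = 0.0243). Among cells with at least 10 pan-endothelial genes read, the HE sums had 82.9, 66.2, 126.6 and 140.5 CPM, again below all Endo sums of such cells, which had 223.2, 321, 303 and 358 CPM. Robo1, the widely expressed receptor, had 37.2, 42.01, 32.9 and 25.4 CPM in Endo and 23.3, 16.3, 29.8 and 23.02 CPM in HE and did not pass (log2 ratio -0.50 ± 0.33, adjusted p = 0.46). Robo2 reached at most 17.99 CPM in any group.

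Slit2 (ENSMUSG00000031558, chromosome 5, 47983138 to 48307733, plus strand), a secreted Slit, had 9.88, 2.996, 19.8 and 4.18 CPM in Endo and 81.8, 102.5, 57.8 and 94.3 CPM in HE. The 4 HE sums were all above the 4 Endo sums, by 2.93-fold in the Runx1b set and by 34.2-fold in the Gfi1 E11.5 set. The fitted log2 ratio of 3.64 ± 0.65 did not pass the threshold (adjusted p = 0.0645). Slit3, the other Slit with reads, had 9.11, 14.6, 3.35 and 25.1 CPM in Endo and 11.8, 31.5, 61.9 and 19.9 CPM in HE, with overlapping groups. Slit1 was not tested.

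Sema3g (ENSMUSG00000021904, chromosome 14, 31217860 to 31230352, plus strand), a secreted class 3 semaphorin, had 20.1, 18.9, 13.99 and 17.6 CPM in Endo and 54.5, 73.5, 50.7 and 125.2 CPM in HE. The groups did not overlap, and the ACE set had the highest HE value. Sema3g rose by 2.10 ± 0.26 on the log2 scale (adjusted p = 0.0354). Sema3f, of the same class, had 14.6, 15.1, 2.98 and 7.41 CPM in Endo and 20.2, 26.1, 22.7 and 26.4 CPM in HE, also without overlap, and did not pass (adjusted p = 0.209).

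Of the 4 class 6 semaphorins, which are membrane proteins, 3 were lower in HE without overlap, as were 5.7% of all genes tested. Sema6d had 164.1, 261.2, 211.3 and 223.1 CPM in Endo and 86.9, 116.8, 134.4 and 115.8 CPM in HE (log2 ratio -0.84 ± 0.16, adjusted p = 0.0756). Sema6a had 86.5, 79.2, 99.03 and 81.1 CPM in Endo and 34.7, 63.97, 51.3 and 76.8 CPM in HE (log2 ratio -0.59 ± 0.22, adjusted p = 0.235). Neither passed. Sema6b, also without overlap, had 3.43 to 13.9 CPM in Endo and 0.105 to 1.45 CPM in HE, and did not pass (edgeR adjusted p = 0.213). Sema6c overlapped, at 1.76 to 10.9 CPM in Endo and 4.68 to 7.17 CPM in HE (log2 ratio 0.18 ± 0.75).

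Over all members tested, 9 were higher in HE without overlap of the sums and 4 lower, against 7.18% and 5.7% of all genes tested. The 9 are Sema3f, Sema3g, Sema4d, Sema5b, Sema7a, Plxna2, Slit2, Ephb3 and Ephb6, and the 4 are Robo4, Sema6a, Sema6b and Sema6d. The median log2 ratio was 1.28 over the 50 members and 0.087 over all genes tested. The filter keeps a gene that is read in 1 gate alone, so these counts describe the members that passed it and are no test of the families.

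Of the plexins, the semaphorin receptors, none passed. Plxna2, a receptor for class 3 and class 6 semaphorins, had 39.9, 11.52, 57.1 and 33.6 CPM in Endo and 66.2, 60.6, 84.7 and 195.98 CPM in HE (log2 ratio 1.63 ± 0.39, adjusted p = 0.113), without overlap. Plxnd1 had 663, 892, 714 and 733 CPM in Endo and 434, 830.5, 358 and 911 CPM in HE, with overlap. Plxnb2 overlapped as well, at 58.1 to 123.5 CPM in Endo and 28.5 to 183.5 CPM in HE.

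Unc5b, the Unc5 receptor of endothelium, had 172.3, 32.5, 143.04 and 58.7 CPM in Endo and 257.4, 179.1, 256.03 and 150.5 CPM in HE. It was higher in HE in each of the 4 sets, though the gates overlapped across sets, and it did not pass (log2 ratio 1.38 ± 0.30, adjusted p = 0.0969). In the set of conflicting stages it was instead lower in HE, at 354 CPM in Endo and 225.98 CPM in HE. Unc5a and Unc5c reached at most 6.11 and 25.7 CPM in these HE sums. The value of 25.7 CPM of Unc5c stood in the Runx1b set, beside 0 to 4.09 CPM in the other HE sums.

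Efnb2 (ENSMUSG00000001300, chromosome 8, 8617434 to 8661242, minus strand) had 140.5, 78.4, 151.9 and 31.01 CPM in Endo and 264.3, 449, 239.3 and 148.9 CPM in HE. It was higher in HE within every set, but the ACE set HE lay below the Runx1b Endo, and the log2 ratio of 1.66 ± 0.34 did not pass (adjusted p = 0.0831). Its receptor Ephb4 (ENSMUSG00000029710, chromosome 5, 137350109 to 137378669, plus strand) had 178.3, 159.6, 180.6 and 394 CPM in Endo and 104.1, 163.2, 101.4 and 275.3 CPM in HE. Ephb4 was lower in HE in 3 of 4 sets, with a log2 ratio of -0.45 ± 0.17 (adjusted p = 0.227). Ephb6, a receptor without kinase activity, had 0.0249, 2.02, 0.237 and 0.48 CPM in Endo and 4.21, 14.8, 7.22 and 39.9 CPM in HE, and Ephb3 at most 0.137 CPM in Endo and 0.698 to 15.2 CPM in HE. Both were without overlap and neither passed (adjusted p = 0.0776 and 0.0738).

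No A ephrin passed, and all 5 overlapped between the gates. Efna1 had 627, 527, 486 and 523 CPM in Endo and 429, 636, 553 and 634 CPM in HE (log2 ratio 0.12 ± 0.16, adjusted p = 0.726). Its receptor Epha2 had 55.95, 32.5, 49.9 and 123.5 CPM in Endo and 12.6, 32.8, 17.7 and 35.8 CPM in HE, lower in HE in 3 of 4 sets (adjusted p = 0.154). Efna4 had 10.9 to 16.4 CPM in Endo and 8.97 to 30.2 CPM in HE, and Efna5 9.01 to 22.4 and 13.3 to 47.3 CPM. Efnb1, Epha3 and Epha7 were highest in the Runx1b HE, at 38.1, 8.39 and 99.2 CPM. The other 3 HE sums had at most 1.73, 0.519 and 3.21 CPM of them.

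**Figure D2:**
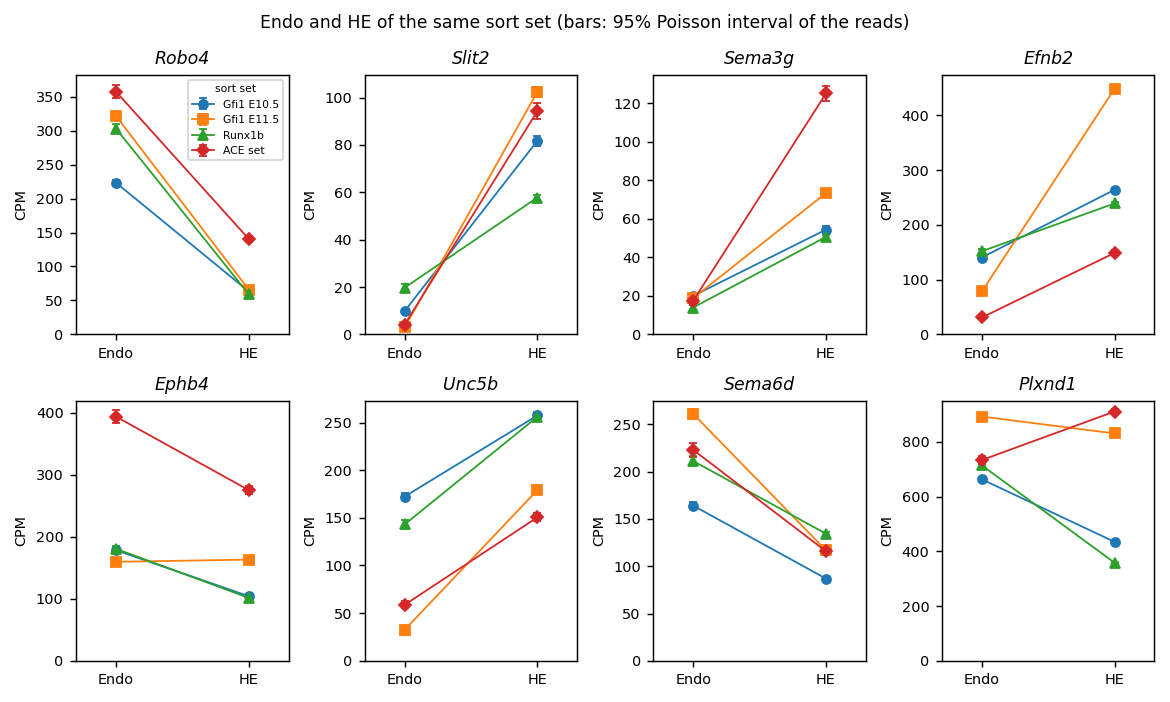
CPM of 8 genes in Endo and HE, where each line joins the 2 gates of 1 sort set and bars are 95% Poisson intervals of the reads. Robo4 and Sema6d are lower in HE along every line, and Slit2, Sema3g, Efnb2 and Unc5b are higher along every line.

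Leaving out any 1 of the 4 sets left 0 members past the threshold, and 0% (without the ACE set) to 0.895% (without the Gfi1 E11.5 set) of all genes; the Robo4 log2 ratio was then -2.04 to -1.76 and that of Sema3g 1.87 to 2.22. DESeq2 called 14 members higher and 4 lower (all genes 17.8% in either direction), and edgeR on cells with at least 10 pan-endothelial genes called 6 higher and 1 lower (all genes 3.48%), among them Slit2, Efnb2 and Unc5b. Marker genes moved with the gates. The 10 arterial markers summed to 448 to 1101 CPM in Endo and 2877 to 7034 CPM in HE, and the 8 venous ones, Nrp2 among them, to 1695 to 2998 and 111.4 to 288 CPM. The 12 mesenchyme markers summed to 0.133 to 16.8 CPM in Endo, 78.6 to 94.8 CPM in 3 HE sums and 4982 CPM in the Runx1b HE, where all 12 had reads. The 7 smooth muscle markers summed to 0.2 to 9.67 CPM in Endo, 65.5 to 170.5 CPM in the same 3 HE sums and 6970.4 CPM in the Runx1b HE. Epithelial markers summed to 0.0678 to 14.8 CPM in Endo and 68.4 to 170.2 CPM in HE, and blood markers, with the reporter gene Gfi1 among them, to 119.3 to 136.4 and 270.6 to 771 CPM. The 12 neural markers summed to 11.04 to 124.5 CPM in Endo and 225.3 to 412 CPM in HE, with Dbh at 0 in all 8 sums. The part of these markers in the differences was not tested.

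The ACE set allows a step between the gates, since ACE+ GFI1- cells had arterial markers at 8348 CPM, beside 7034 CPM in ACE+ GFI1+ HE and 746 CPM in ACE- Endo. With 1 sum in each group there is no replicate check. Efnb2 and Unc5b were higher in ACE+ GFI1- cells than in HE, and Sema3g slightly lower. Sema3g had 17.6, 120.7 and 125.2 CPM in Endo, ACE+ GFI1- and HE cells. Efnb2 had 31.01, 160.6 and 148.9 CPM, and Unc5b 58.7, 279 and 150.5 CPM, in the same order.

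For Robo4 and Slit2 the ACE+ GFI1- cells lay between Endo and HE. Robo4 had 357, 279 and 140.5 CPM in Endo, ACE+ GFI1- and HE cells, and the second step was just short of 2-fold. Slit2 had 4.18, 36.6 and 94.3 CPM, with exact intervals of 35.02 to 38.2 CPM in ACE+ GFI1- cells and 90.9 to 97.8 CPM in HE. Ephb6 took the same course, at 0.48, 13.2 and 39.9 CPM.

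By the rule for such pairs, a member had to reach 10 CPM and 25% of cells in the higher group and differ at least 2-fold by the sum and by the mean per cell. From ACE- Endo to ACE+ GFI1- cells, 11 of 28 members that could be judged were higher (all genes 12.1%) and 3 lower (all genes 11.4%). The 11 were Sema3f, Sema3g, Sema7a, Plxna2, Plxna4, Slit2, Unc5b, Efna1, Efna5, Epha4 and Efnb2, and the 3 were Sema6b, Sema6c and Epha2. Epha4 had 0.686 CPM in Endo and 45.2 CPM in ACE+ GFI1- cells. Sema7a, an anchored semaphorin, went from 0.686 to 36.4 CPM. From ACE+ GFI1- to HE, 3 of 29 members were higher (Sema4b, Slit2 and Ephb6; all genes 3.52%) and 2 lower (Efna5 and Epha4; all genes 1.36%). The ACE+ GFI1- cells enter both steps.

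Genes of a ligand family and of a receptor family were then looked at in the same cells, each thinned to 100000 reads. The pair Slit2 and Robo4 was chosen after their levels were seen, and whether Slit2 binds Robo4 was not tested. These genes parted along the gates at E10.5. Slit2 reads without Robo4 reads were found in 0 of 73 Endo cells (exact interval up to 4.93%). They were found in 23.2% of 95 HE, 56.1% of 41 EHT and 54.8% of 42 IAHC cells. Unthinned, these shares were 0%, 21.1%, 60.98% and 54.8%. The other sets of this line did not show the same rise after HE. At E11.5, thinned, Slit2 alone was found in 0% of Endo, 37.8% of HE and 13.6% of IAHC cells. In the set with title E11.5 and field E10.5 it was found in 4.88% of Endo, 23.1% of HE and 28.6% of EHT cells. Of those EHT cells 26.2% had Robo4 alone and 38.1% both.

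Robo4 reads alone were found in 71.2% of Endo cells (59.4% to 81.2%), 15.8% of HE, 7.32% of EHT and 11.9% of IAHC cells. In the ACE set most HE cells had both, 64.9% of 37, where 23.1% of 13 Endo cells did. Cells are not replicates, so these intervals describe the sorts.

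Most Endo and HE cells held reads of both the arterial ligand and the venous receptor. Reads of Efnb2 and Ephb4 together were found in 57.5% of the E10.5 Endo cells and 65.3% of the HE cells. The gates differed in the cells with Ephb4 alone, 26.03% of Endo (16.5% to 37.6%) and 1.05% of HE (0.0266% to 5.73%), or 22.97% and 1.05% unthinned. In IAHC, 45.2% had Ephb4 alone, 2.38% both and 42.9% neither; unthinned, 40.5% had Ephb4 alone and 9.52% both.

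**Figure D3:**
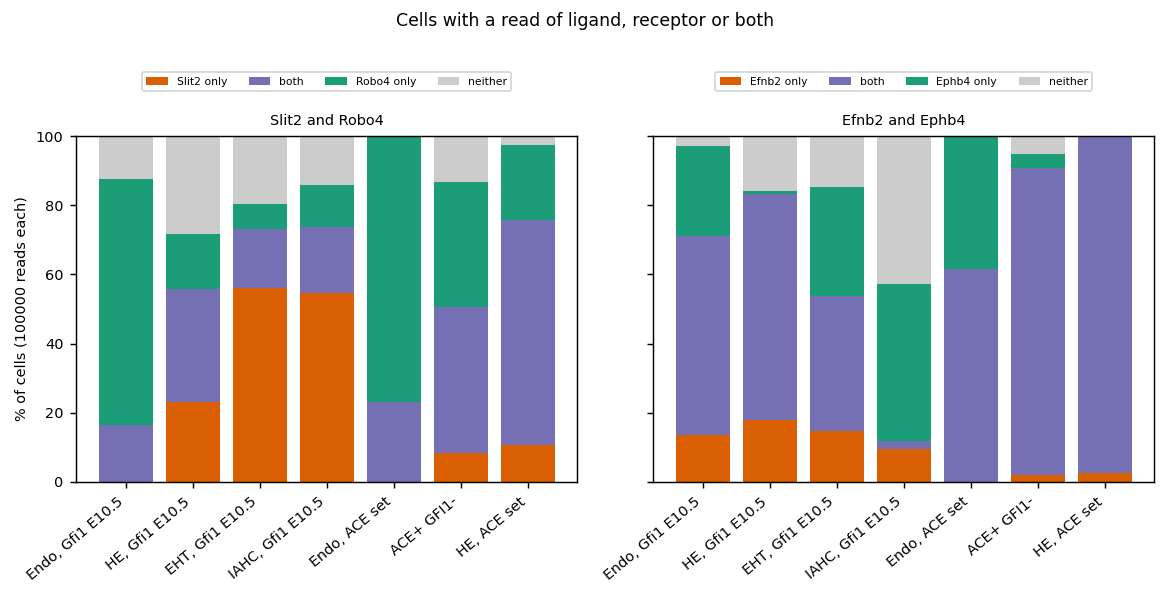
Share of cells, each thinned to 100000 reads, in 7 groups at E10.5. Cells had a read of Slit2 or Efnb2 only, of both genes of a pair, of Robo4 or Ephb4 only, or of neither. Slit2 without Robo4 grows from 0% in Endo to 54.8% in IAHC, and Ephb4 without Efnb2 is smallest in the HE groups.

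Along the gates of the Gfi1/Gfi1b line, KIT+ CD41+ cells (EHT and IAHC) were compared with HE over 3 sets, E10.5, E11.5, and the set with title E11.5 and field E10.5. The first 2 HE sums are those set against Endo above, so the comparisons share them. No member passed among the 49 tested, and none of 15184 genes did (background 0%). At an unadjusted p under 0.05 edgeR had 14 members lower (all genes 7.47%) and 1 higher (all genes 5.87%), and DESeq2 called 16 lower and 2 higher (all genes 12.9% in either direction). In 21 members all EHT and IAHC sums were below all HE sums, where 9.41% of all genes were so, and in 1, Sema4d, above (all genes 3.99%). The median log2 ratio was -2.04 over the members tested and 0.05 over all genes tested. Here too the filter can keep a gene that is read in 1 gate alone. These counts and the median thus describe the members that passed the filter and are no test of the families.

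The vascular ligands had these values in E10.5 EHT, E10.5 IAHC, E11.5 IAHC, and EHT of title E11.5. Efnb2 had 71.3, 10.7, 40.8 and 141.6 CPM, below the 264.3 to 563 CPM of the 3 HE sums (log2 ratio -2.48 ± 0.26, adjusted p = 0.0986). Efna1 had 75.4, 25.5, 70.9 and 151.5 CPM, below 429 to 739.6 CPM in HE (log2 ratio -2.59 ± 0.33, adjusted p = 0.117). Sema3g had 17.7, 1.15, 9.46 and 24.2 CPM, below 54.5 to 95.3 CPM in HE.

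Sema6d was close to 0 in E10.5 IAHC, with 15.8, 0.277, 27.2 and 21.7 CPM in the 4 KIT+ CD41+ sums. Slit2 did not follow these ligands. It had 90.3, 95.2, 41.97 and 101.5 CPM in the KIT+ CD41+ sums and 49.7 to 102.5 CPM in HE, so that the groups overlapped (log2 ratio 0.25 ± 0.31, adjusted p = 0.779). Sema4d, a class 4 semaphorin known from blood cells as CD100, had 17.6, 26.2, 13.9 and 31.9 CPM and 6.87 to 11.9 CPM in HE, all higher, without passing (adjusted p = 0.299).

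Among receptors, Plxnd1 had 200.99, 80.5, 70.8 and 191.1 CPM, below 434 to 949.8 CPM in HE (log2 ratio -2.24 ± 0.19, adjusted p = 0.0968). Unc5b had 70.1, 1.03, 22.8 and 58.1 CPM, with its lowest value in E10.5 IAHC, and 179.1 to 257.4 CPM in HE. Ephb4 had 52.8, 24.2, 7.74 and 41.9 CPM, and 104.1 to 163.2 CPM in HE. All 3 were without overlap. Robo4 was already low in HE (63.3 to 65.96 CPM) and overlapped with the KIT+ CD41+ sums, which had 20.3, 22.1, 32.7 and 72.3 CPM. Ephb6 (11.1, 11.1, 5.72 and 11.49 CPM) and Plxnc1, the receptor of Sema7a (23.02, 21.1, 37.5 and 25.04 CPM), had levels that overlapped with HE.

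**Figure D4:**
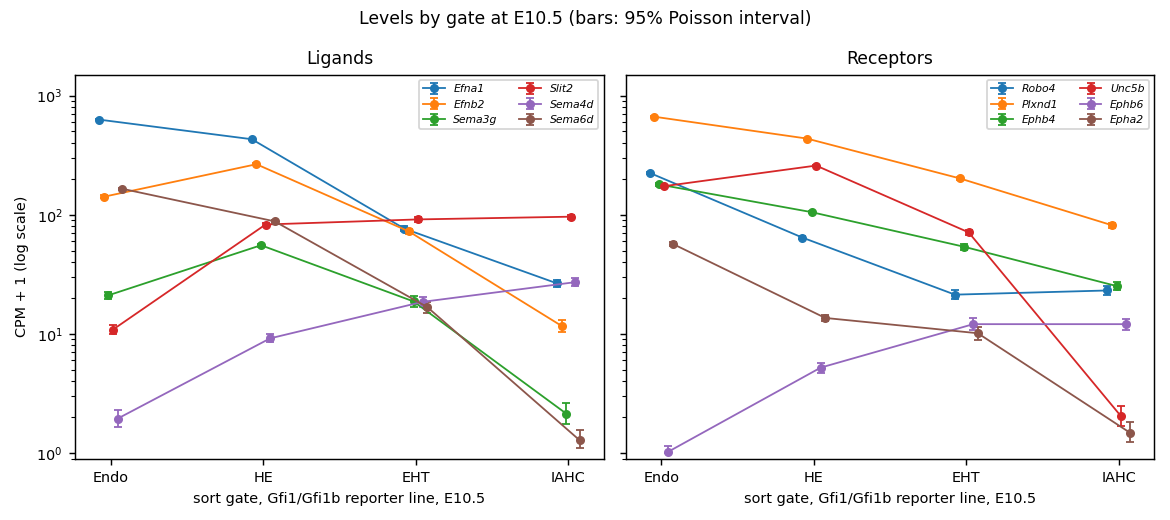
CPM + 1 on a log scale of 6 ligands (left) and 6 receptors (right) in the Endo, HE, EHT and IAHC sorts of the Gfi1/Gfi1b line at E10.5, with 95% Poisson intervals. Most lines drop towards IAHC, while Slit2 stays between 81.8 and 95.2 CPM from HE on and Sema4d and Ephb6 end above their Endo level.

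The E11.5 IAHC sort stands apart, with 14 of 22 erythroid-like cells and 9 of 22 with at least 10 pan-endothelial genes. Its Slit2 value was 41.97 CPM over all cells and 130.2 CPM without the erythroid-like ones; Efnb2 had 40.8 and 117.2 CPM in the same order. Without the E11.5 set 3 members were called lower (Efna1, Efnb2 and Plxnd1), where 1.25% of all genes were called in either direction. Without that set and without erythroid-like cells, an alternative chosen after seeing the data, 8 were (all genes 2.44%), the same 3 with Sema3g, Plxna2, Unc5b, Efna5 and Ephb4. Blood markers summed to 1158 to 2835 CPM in the KIT+ CD41+ sums and 383 to 673 CPM in HE. This list holds Kit, Itga2b (CD41), Gfi1 and Gfi1b, by which the gates were set, so its rise is in part fixed by the sort. Kit alone had 843 CPM in EHT of title E11.5. Pan-endothelial markers summed to 1750.1 to 6186 CPM in the KIT+ CD41+ sums and 9715 to 17668 CPM in HE. The part of both lists in the result was not tested.

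The 2 Mes sorts, which lack CDH5, were compared with the 4 Endo sums to set the vessel wall beside its surroundings. Of 58 members tested 8 passed (all genes 4.57%), 5 higher in Mes (all genes 2.7%) and 3 lower (all genes 1.87%). The Endo sums are those used against HE above, so the comparisons share them. The 2 Mes sums are different genotypes of the Runx1b line, while the Endo sums come from several lines and both stages, and no block was fitted. Gate, line, stage and genotype can thus not be told apart in this fit. Values for Mes stand as heterozygous, then RFP/RFP.

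Robo4 had 6.81 and 31.3 CPM in Mes, under the 223.2 to 357 CPM of Endo, and fell by 4.06 ± 0.64 (n = 2 and 4 sums, edgeR adjusted p = 0.0179). Plxnd1 (ENSMUSG00000030123, chromosome 6, 115954811 to 115995005, minus strand) had 80.1 and 214.6 CPM in Mes and 663 to 892 CPM in Endo, and fell by 2.42 ± 0.41 (adjusted p = 0.022). Efna1 (ENSMUSG00000027954, chromosome 3, 89271733 to 89281142, minus strand) had 45.8 and 149.3 CPM in Mes and 486 to 627 CPM in Endo, and fell by 2.54 ± 0.46 (adjusted p = 0.0277). In all 3 the RFP/RFP Mes was the higher of the Mes sums and still below every Endo sum.

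The receptors Ephb3, Ephb2 and Epha3, the secreted Sema3c and the plexin Plxnb2 rose in Mes. Plxnb2 had 277.9 and 214.2 CPM in Mes and 58.1, 67.4, 87.2 and 123.5 CPM in Endo (log2 ratio 1.49 ± 0.33, edgeR adjusted p = 0.0487). It did not pass under RLE scaling, and with 1 Endo sum left out it passed only without that of the ACE set. Ephb3 had 33.4 and 28.8 CPM in Mes and at most 0.137 CPM in Endo (adjusted p = 0.0116). Ephb2 had 16.6 and 11.2 CPM (adjusted p = 0.0284), Epha3 33.1 and 7.94 CPM (adjusted p = 0.0284) and Sema3c 12.5 and 4.97 CPM (adjusted p = 0.0435) in Mes. All 4 Endo sums had 0 reads of these last 3, so their fitted ratios depend on the prior count and are not given. These 3, and Ephb3, passed the filter on low counts only through Mes, where they are high, so their p-values and their place in the count of 5 are a description of where they were read. Sema3c did not pass once the Endo sum of conflicting stages was added. With 1 Endo sum left out, Sema3c and Epha3 passed only without that of Gfi1 E11.5, and Ephb2 only without that one or that of the ACE set.

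The filter can keep a gene that is read in Mes alone, so the next counts describe the members it kept and are no test of the families. Sema4a, Slit1, Unc5d and Epha8, for example, had 0 CPM in every Endo sum. At an unadjusted p under 0.05, 23 members were higher (all genes 11.3%) and 9 lower (all genes 7.33%). Without overlap, 35 members were higher in Mes (all genes 22.1%) and 10 lower (all genes 10.6%). Among those that did not pass were Epha7, with 182.3 and 157.6 CPM in Mes and 0 to 9.32 CPM in Endo (adjusted p = 0.0671), Sema5a, with 99.03 and 82.3 CPM in Mes and 0 to 9.62 CPM in Endo, and Efnb1, with 49.7 and 60.7 CPM in Mes and 0.576 to 12.3 CPM in Endo. Slit2 and Slit3 were also higher in Mes, at 80.99 and 44.02 CPM and 56.9 and 68.1 CPM. Efnb2 (73.8 and 124.5 CPM) and Unc5b (77.3 and 171.1 CPM) overlapped with Endo. Robo4 passed without any 1 sum except the Runx1b or the ACE set Endo sum, and Ephb3 without any 1 sum except either Mes sum. Plxnd1 and Efna1 did not pass without the Gfi1 E10.5, Runx1b or ACE set Endo sum or the heterozygous Mes sum. Without the Gfi1 E10.5 Endo sum 1 member was called higher and 1 lower, without the Runx1b Endo sum 1 and 0, without the ACE set Endo sum 4 and 1 (the latter Ephb4), and without the Gfi1 E11.5 Endo sum 7 and 3. Without the heterozygous Mes sum 0 were called higher and 1 lower, and without the RFP/RFP Mes sum 0 and 3. Over these fits 0.844% to 5.18% of all genes were called. Within the Runx1b line alone, 2 Mes sums against 1 Endo sum, 0 of 18695 genes passed by edgeR.

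**Figure D5:**
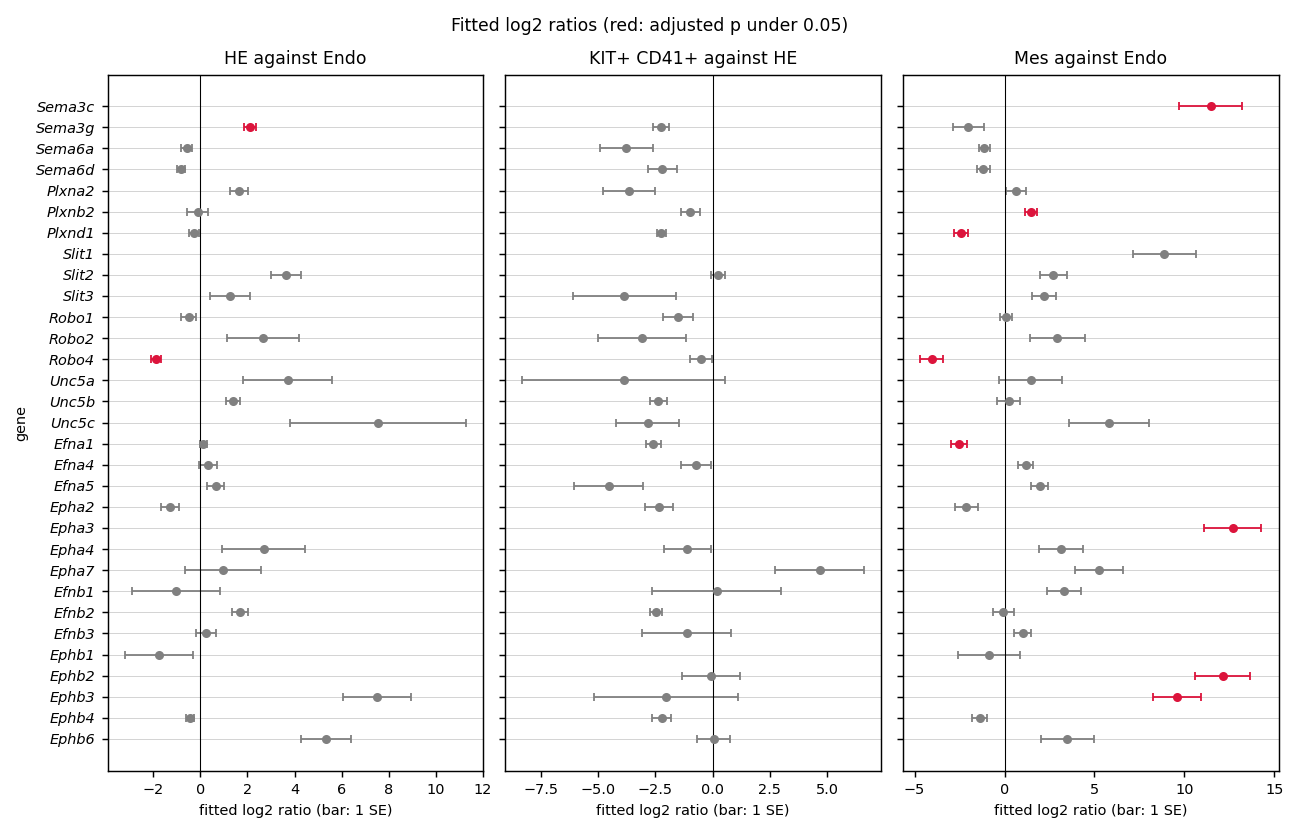
Fitted log2 ratios of the 31 named members (points) with 1 standard error (bars) for the 3 tested comparisons, where a missing point was not tested. Red points passed an adjusted p of 0.05: Robo4 and Sema3g for HE against Endo, none for KIT+ CD41+ against HE, and 8 for Mes against Endo. Ratios above 6 rest on gates with few or no reads.

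The stages were compared within the Gfi1/Gfi1b line, with 1 sum a stage and no replicate check. In Endo, 5 of 19 members that could be judged differed at least 2-fold (all genes 15.9%). Sema4c and Sema6b were higher at E11.5, and Plxna2, Plxnb1 and Unc5b lower. Sema4c, a membrane semaphorin that binds Plxnb2, had 6.39 CPM at E10.5 and 27.1 CPM at E11.5. Unc5b had 172.3 CPM and 32.5 CPM. The Endo cells with title E11.5 and field E10.5 did not share the fall of Plxna2, Plxnb1 and Unc5b. They had 54.3 CPM of Plxna2 and 33.3 CPM of Plxnb1, beside 39.9 and 28.6 CPM at E10.5. Their Unc5b level was 354 CPM. At E11.5, Plxna2 had reads in 2 of 16 Endo cells. Arterial markers summed to 1101 CPM at E10.5 and 448 CPM at E11.5, and venous ones to 1695 and 2581 CPM; their part in these differences was not tested. The E11.5 Endo sort held 16 cells, read at a median of 2777260 reads, against 74 cells at 508629.

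In HE, Sema4c and Efna3 were higher at E11.5 (all genes 9.12%) and Plxnb2 lower (all genes 8.39%), of 22 members. Sema4c was thus above 2-fold in both gates, at 2.06 and 17.5 CPM in HE. Plxnb2 had 65.98 and 28.5 CPM. The HE cells with title E11.5 and field E10.5 did not share this, with 0.175 CPM of Sema4c and 111.5 CPM of Plxnb2. In IAHC, Efna1 and Efnb2 were higher at E11.5 (all genes 4.13%) and Ephb4 lower (all genes 50.9%), of 10 members, with the erythroid-like cells named above. Without these cells Ephb4 was at 18.96 CPM beside 24.2 CPM at E10.5, and no longer 2-fold lower.

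In HE of embryos homozygous for the Gfi1 and Gfi1b reporter alleles, reads of the targeted genes did not check the labels. Gfi1 had 218.9 CPM there and 55.2 CPM in heterozygous HE, and Gfi1b 91.6 and 52.1 CPM; which part of the genes these reads cover was not analysed here. No member was at least 2-fold higher (all genes 4.31%) and 3 of 20 were lower (all genes 4.15%), Sema3f and the plexins Plxna2 and Plxna4. Plxna2 had 66.2 CPM in heterozygous and 5.72 CPM in homozygous HE (exact interval 4.66 to 6.94 CPM). It was read in 43.2% and 14.3% of cells. Plxna4 had 20.5 and 2.8 CPM. Among cells with 10 pan-endothelial genes the Plxna2 values were 86.7 and 6.5 CPM. Robo4 (80.7 CPM) and Slit2 (106.5 CPM) stayed within 2-fold of heterozygous HE.

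In the Runx1b line, Runx1 had 17.8 CPM in heterozygous HE and 1.47 CPM in titled KO HE. Of 28 members, 6 were at least 2-fold higher in the titled KO cells (all genes 4.55%) and 4 lower (all genes 3.82%). The higher ones were Sema4c, Sema7a, Robo4, Efna1, Efna4 and Ephb4, with Robo4 at 59.02 CPM in heterozygous and 220.2 CPM in titled KO HE. The lower ones were Sema5a, Plxnb2, Epha7 and Efnb1, with Epha7 at 99.2 and 5.15 CPM.

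The makeup of these sorts differed. Cells with at least 10 pan-endothelial genes were 50% of the heterozygous and 97.8% of the titled KO sort, and mesenchyme markers summed to 4982 and 107.3 CPM. Among such cells alone, 0 members met the rule, which also asks for 2-fold by the mean per cell. The share of all genes was not taken in these cells, so this count does not set the members apart from other genes. By the sum, Efna4 (13.6 CPM in heterozygous and 27.8 CPM in titled KO cells) and Sema4c (5.02 and 10.3 CPM) were still over 2-fold higher. Robo4 then had 126.6 CPM in heterozygous and 223.2 CPM in titled KO cells. Efna1 had 1170.2 and 1195 CPM, Sema5a 3.2 and 3.79 CPM, and Epha7 0.954 and 4.52 CPM, the last 2 in the opposite direction to the whole sorts.

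In Mes, Runx1 had 35.3 CPM in heterozygous and 20.1 CPM in RFP/RFP cells. Sema6d, Plxnd1, Unc5b, Unc5c and Efna1 were at least 2-fold higher in RFP/RFP cells (all genes 2.53%) and no member of 27 was lower (all genes 1.76%). Pan-endothelial markers summed to 776 CPM in heterozygous and 3314 CPM in RFP/RFP Mes, and 3.74% and 14.3% of the cells had at least 10 of these genes. Macrophage markers summed to 423 and 1.55 CPM and erythroid ones to 63864 and 6303 CPM in the same order; the part of these lists in the differences was not tested. Without the cells with at least 10 pan-endothelial genes, an alternative added after seeing the data, Unc5b (62.7 and 144.1 CPM) and Unc5c (26.9 and 70.8 CPM) were still over 2-fold higher. Sema6d (59.6 and 111.7 CPM), Plxnd1 (62.3 and 102.8 CPM) and Efna1 (16.01 and 14.2 CPM) were not.

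Of 46 further genes of these pathways (neuropilins, netrins and their receptors, and signalling partners), 39 were tested between HE and Endo, and 1 rose and 2 fell (all genes 0.886% and 0.515%). Nrp1, the co-receptor of class 3 semaphorins and VEGF, rose by 1.59 ± 0.21 on the log2 scale, from a mean of 409.7 to 1190.3 CPM (adjusted p = 0.0371). Nrp2 fell (adjusted p = 0.0193), from 260.2 to 7.58 CPM, as did Crmp1, a semaphorin signalling partner, from 286 to 45.2 CPM (adjusted p = 0.0354). Against HE, 0 of 41 passed in KIT+ CD41+ cells. Between Mes and Endo 10 of 42 rose (all genes 2.7%), Neo1 and Pdzrn3 among them, and 4 fell (all genes 1.87%), with Arhgef15 from 232.5 to 22.9 CPM.

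Across the 19 groups, which differ in depth and share lines, the members most like Robo4 by Pearson's r of log2(CPM + 1) were Plxnd1 (0.83), Efna1 (0.82) and Epha2 (0.69). Those most like Ephb4 were Sema6a (0.94), Epha2 (0.92) and Plxnd1 (0.87). Those most like Efnb2 were Unc5b (0.88), Sema3g (0.76) and Sema3f (0.74). The Efnb2 list and the Ephb4 list have no gene in common.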

How the data were processed

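Counts are whole reads per gene and cell, deposited by the authors without normalization in a table of 1288 cells and one of 169 ACE-set cells. Per the submitters' processing notes, bcl2fastq, STAR 2.4.2a, HTSeq 0.6.1p1, R 3.6.2 and GRCm38 were used, in roles not stated. The annotation, strand setting and cell filter were not in the sources read, so a gene cannot be told apart from an antisense or overlapping partner. The larger table was held up to a row cut short, and both were limited to the 36131 genes they share; 10.1% of the ACE-set reads fell outside these. PCR copies count as reads. No cell was left out, none were clustered, and no doublet caller was run. No cell had the same counts as another.

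The larger groups were heterozygous Runx1b HE (262 cells), titled KO HE (277), heterozygous Mes (107) and ACE+ GFI1- (116). Reads were summed over the cells of each group, since cells are not replicates. Sums were tested with edgeR 4.0.16 in R 4.3.3 (quasi-likelihood F-test, TMM scaling, filterByExpr) with Benjamini-Hochberg adjustment over all genes tested and a threshold of 0.05. The sort set was a block in the first 2 tests, and in the second the EHT and IAHC cells of a set were pooled into 1 sum. Groups with 1 sum were compared by fold. On simulated counts, log2 changes of 3 were found in 97% of genes for HE against Endo (14404 genes run), 49% for KIT+ CD41+ against HE (14920) and 41% for Mes against Endo (16532). Every simulated gene was given the same median dispersion, so these shares do not hold for genes that vary more between sums. In the data Slit2, with a fitted log2 ratio of 3.64 for HE against Endo, did not pass. Depth per group ranged from 14577594 to 199887490 reads.

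The members, lists and comparisons were chosen with earlier results of these data known. Genes named with values are those past the threshold in any test and, in each family, up to 3 with the highest mean CPM in Endo; others are named after their values were seen. Alternatives were DESeq2 1.42.0, RLE scaling, no filter, thinned, deeper or endothelial cells only, and sets left out. Positions are of GRCm38 from GENCODE and promoters from RefSeq; Python 3.11.15, pandas 2.3.3 and scipy 1.17.1 were used.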

Additional observations from a re-analysis of the deposited data

Results flagged for a closer look

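Among 93 sets of 4 sums (a gene in the 4 Endo, 4 HE or 4 KIT+ CD41+ sums), 11 had 1 sum far from the other 3 by Dixon's criterion. Its rate of 1 in 20 assumes normal values without ties and cannot be used for CPM with sums at 0. Where the other 3 sums had 0 CPM, any read met the criterion, as for Sema3c and for Unc5c in Endo. The flags are a description only. In 5 of them the heterozygous Runx1b HE was highest. It had 99.2 CPM of Epha7, beside 0.337 to 3.21 CPM in the other HE sums, and 38.1 CPM of Efnb1, beside 0.778 to 1.73 CPM. It had 25.7 CPM of Unc5c (others 0 to 4.09 CPM), 8.39 CPM of Epha3 (0 to 0.519 CPM) and 3.59 CPM of Sema3c (0 CPM). Epha7, Efnb1, Epha3, Unc5c and Sema3c all had higher sums in Mes than in the 4 Endo sums.

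The ACE set was highest in 3. Its HE had 140.5 CPM of Robo4, where the other HE sums had 59.02 to 65.96 CPM. Its Endo had 393.8 CPM of Ephb4, beside 159.6 to 180.6 CPM, and 3.16 CPM of Unc5c, beside 0 CPM. Among KIT+ CD41+ sums, E10.5 EHT had 1.60 CPM of Unc5a (others 0 to 0.119 CPM), the EHT sort of title E11.5 had 0.0664 CPM of Sema3c (others 0 CPM), and E11.5 IAHC was lowest in Ephb6, with 5.72 CPM beside 11.1 to 11.49 CPM.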

How the results depend on the processing

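For HE against Endo, 1 member was called higher and 1 lower. DESeq2 called 14 higher and 4 lower (all genes 17.8% in either direction), and cells thinned to 100000 reads 7 and 2 (all genes 6.74%). No block for the sort set called 3 higher (all genes 3.04%), and cells with at least 10 pan-endothelial genes 6 higher (all genes 3.48%). Leaving out a set called 0 to 0 of either (all genes 0% to 0.895%). Robo4 and Sema3g were called under RLE scaling, no filter, a 50000-read minimum, without erythroid-like cells, with the set of conflicting stages added and without misspelt titles, as under DESeq2, thinning, no block and the pan-endothelial cells. For KIT+ CD41+ against HE (0 higher, 0 lower), DESeq2 called 2 higher and 16 lower (all genes 12.9%), and thinning 6 lower (all genes 3.8%). Leaving out a set called 0 to 3 lower (all genes 0% to 1.25%). Leaving out erythroid-like cells and the E11.5 set together (chosen after seeing the data) called 8 lower (all genes 2.44%). For Mes against Endo (5 higher, 3 lower), DESeq2 called 12 higher and 8 lower (all genes 11.7%), and thinning 13 higher (all genes 9.38%). Leaving out 1 Endo sum called 1 to 7 higher and 0 to 3 lower (all genes 1.97% to 5.18%). RLE scaling lost Plxnb2, and the added Endo sum of conflicting stages Sema3c. The fits given further above that left 1 Mes sum assume that it varies like the Endo sums.

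Of members at least 2-fold different, cells with 10 pan-endothelial genes gave 5 for the HE stages (3 with all cells), 5 for the Gfi1/Gfi1b homozygotes (3) and 0 for the titled KO (10), where the log2 ratios of Sema5a and Epha7 turned to 0.24 and 2.24. Without erythroid-like cells the counts were 9 for the IAHC stages (3), 5 for the Gfi1/Gfi1b homozygotes and 2 for Mes (5), where the summed log2 ratios of all 5 stayed between 1.001 and 1.56. Mes cells with under 10 such genes (added after seeing the data) gave 2, with Efna1 at -0.17. Efnb2 without Ephb4 was seen in 14.6% of E10.5 EHT cells thinned and 4.88% unthinned. The cause of these shifts was not tested, and no share of all genes was taken for these 2-fold counts. The counts therefore do not tell whether members shifted more than other genes. The labels give no replicate numbers; HE and Endo were paired by sort set, as a block, and without it 3 members were called higher and 1 lower. In comparisons of 1 sum with 1 sum, sums under 3 reads were set to 3 before the fold was taken. No fold from such a sum is printed here.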

Other observations

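The Endo cells titled E11.5 with E10.5 as stage field enter the comparisons above only as an alternative. Their levels were 198.6 CPM of Robo4, 370.1 CPM of Efnb2, 354 CPM of Unc5b, 62.2 CPM of Sema3g, 20.8 CPM of Slit2 and 200.1 CPM of Ephb4. The Robo4 value lay below the range of the 4 Endo sums, and those of Efnb2, Unc5b, Sema3g and Slit2 above it. Arterial markers summed to 3419 CPM in these cells and to 448 to 1101 CPM in the 4 Endo sums. HE cells labelled the same way had 64.7 CPM of Robo4, 563 CPM of Efnb2, 225.98 CPM of Unc5b, 95.3 CPM of Sema3g, 49.7 CPM of Slit2 and 132.5 CPM of Ephb4. Within this set Unc5b was thus lower in HE than in Endo.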
